A study of Homo sapiens with 12 samples.

Results

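The 8 genes PRDX6, GLUL, PSMA2, PCMT1, ANP32B, ACTR1A, RER1 and FIBP each end at a proximal and a distal poly(A) site, and the balance of these ends between polysomes and cytoplasm differed between STAU1-knockout (KO) and wild-type (WT) HEK293T cells. They were 8 of 1043 pairs of neighbouring poly(A) sites with at least 20 reads at each site in each fraction library. They were chosen by that difference in the fraction libraries, so their values there are given as a description with no test. The pull-down libraries of the same study took no part in the choice, and there the 8 genes were tested. In the main fit of the pull-downs, none of the 8 genes passed a test of the distal-to-proximal ratio. That fit called almost none of the changes put into simulated data, so no gene is shown to be unchanged. Tested end by end, 2 of the 16 ends, both distal, differed between the STAU1 and the GFP pull-down, as did 0.688% of all sites. The 16 ends had smaller standard errors than most sites, so these shares are not matched. The distal end of ANP32B rose over input with GFP (1.69 on the log2 scale) and did not pass with STAU1 (-0.30). That of ACTR1A was higher with STAU1, a call lost in 6 of 8 fits that left out 1 library.

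HEK293T is a human embryonic kidney cell line. The KO cells are 1 clone made with a Cas9 nickase pair, called C8 in the labels, and the WT cells are its isogenic control, clone C9. Polysomal and cytoplasmic RNA of KO and of WT cells was sequenced, with 1 library each, so that genotype, clone and library cannot be told apart. The pull-downs used KO cells only, which therefore all lack the endogenous protein: cells transiently carrying STAU1-FLAG or, as the control, FLAG-GFP gave RNA from an anti-FLAG immunoprecipitate (STAU1 IP, GFP IP) and from the total lysate (STAU1 input, GFP input), with 2 replicates in each of 4 groups. The labels do not say whether replicates came from separate cultures, so the spread behind each p-value may be technical.

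Most human genes can be cleaved and polyadenylated at more than one place, and a distal site gives an mRNA with a longer 3' end, which can carry more binding sites for proteins and microRNAs. STAU1 (Staufen1) is a double-stranded-RNA-binding protein that recognises base-paired stretches, often in 3' untranslated regions, and is known for roles in mRNA decay, transport and translation. mRNAs on polysomes carry several ribosomes, so an isoform's share there against its share in the cytoplasm is commonly used as a sign of how much it is translated. The 3'READS+ method sequences the last stretch before the poly(A) tail, so each read marks 1 transcript end and the distal share, distal reads over distal plus proximal reads, measures isoform balance within a gene.

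Positions are those of hg19, and the gene names came with the site pairs, since the tables list sites by chromosome, strand and position only. Whether a site lies in a 3' untranslated region was therefore not determined. PRDX6, a peroxiredoxin that reduces peroxides and phospholipid hydroperoxides, ends on the plus strand of chromosome 1 at 173457150 and 173457945, 795 nt apart. GLUL, the glutamine synthetase that joins ammonia to glutamate, ends on the minus strand of chromosome 1 at 182353416 and 182352030, 1386 nt apart. Both are enzymes of general metabolism.

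PSMA2, an alpha subunit of the core particle of the proteasome, ends on the minus strand of chromosome 7 at 42957012 and 42956464, 548 nt apart. PCMT1, a methyltransferase that repairs isoaspartyl residues in aged proteins, ends on the plus strand of chromosome 6 at 150132040 and 150132547, 507 nt apart. ANP32B, an acidic leucine-rich nuclear protein that binds histones, ends on the plus strand of chromosome 9 at 100778099 and 100778222. At 123 nt this pair is the closest of the 8.

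ACTR1A, the actin-related protein that forms the short filament of dynactin, the cofactor of the dynein motor, ends on the minus strand of chromosome 10 at 104240559 and 104238987, and at 1572 nt its sites are the farthest apart. RER1, which returns membrane proteins from the Golgi to the endoplasmic reticulum, ends on the plus strand of chromosome 1 at 2334659 and 2335188, 529 nt apart. FIBP, an intracellular protein that binds acidic fibroblast growth factor, ends on the minus strand of chromosome 11 at 65651393 and 65651212, 181 nt apart. All 16 sites were present at the same positions in both tables and passed the filters on low counts.

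The 4 fraction libraries held 2799226 to 3483937 reads. The STAU1 IP, STAU1 input and GFP input libraries held 5567893 to 9655646 reads, and the GFP IP libraries only 1291888 and 1245270. STAU1 input replicate 1 stood apart in covering 99156 sites, where its partner covered 175098, and values without it are given beside the calls it changes. The level of STAU1 mRNA and the markers of the cell line were not analysed here.

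In the fractions, the 8 genes split into 5 with a positive change (PRDX6, ANP32B, PSMA2, RER1 and FIBP) and 3 with a negative one (GLUL, PCMT1 and ACTR1A). The measure is the log2 ratio of distal to proximal reads, taken as polysome minus cytoplasm in each genotype, then KO minus WT. Its 95% intervals cover counting error only. A positive change need not be a gain in polysomes. KO minus WT was 0.13 in polysomes and -0.94 in cytoplasm for PRDX6, and 0.00 and -1.17 for ANP32B. Reads from PCR lack molecular identifiers here and need not stand for separate molecules. All 8 genes were past an absolute change of 1, as were 11.1% of the 1043 pairs (5.94% higher and 5.18% lower), and since this contrast chose the genes nothing is read from that count. Over all pairs the change had a median of -0.01 and an SD of 0.61, and 11 pairs changed more than every one of the 8.

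PRDX6 had a distal share of 45.1% in KO polysomes (851 distal and 1036 proximal reads), 44.5% in KO cytoplasm (649 and 810), 43.0% in WT polysomes (841 and 1117) and 60.5% in WT cytoplasm (972 and 634). The WT cytoplasm library is high and the other 3 lie close together. The polysome-minus-cytoplasm difference was 0.04 in KO cells and -1.03 in WT cells, a change of 1.06 with a counting interval of 0.78 to 1.34. PRDX6 had the most reads of the 8 genes, which narrows its counting interval.

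GLUL used its distal end almost throughout, at 94.0% in KO polysomes (1035 distal and 66 proximal reads), 96.7% in KO cytoplasm (1759 and 60), 94.8% in WT polysomes (1501 and 82) and 92.7% in WT cytoplasm (1694 and 134). The KO cytoplasm is the highest library and the WT cytoplasm the lowest. Polysome minus cytoplasm was -0.90 in KO cells and 0.53 in WT cells, a change of -1.44 with an interval of -2.10 to -0.78.

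PSMA2 had a distal share of 25.7% in KO polysomes (297 distal and 858 proximal reads), 16.6% in KO cytoplasm (115 and 579), 18.3% in WT polysomes (148 and 659) and 21.4% in WT cytoplasm (139 and 511). Here the KO polysome library stands highest. The difference was 0.80 in KO cells and -0.28 in WT cells, a change of 1.08 with an interval of 0.57 to 1.59. PCMT1 had 30.3% in KO polysomes (128 and 295), 32.0% in KO cytoplasm (120 and 255), 35.8% in WT polysomes (130 and 233) and 16.6% in WT cytoplasm (54 and 272). Its WT cytoplasm is low and the other 3 libraries are alike. Polysome minus cytoplasm was -0.12 in KO cells and 1.49 in WT cells, a change of -1.61 with an interval of -2.29 to -0.93.

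ANP32B had a distal share of 36.7% in KO polysomes (184 distal and 317 proximal reads), 40.6% in KO cytoplasm (190 and 278), 36.7% in WT polysomes (153 and 264) and 60.7% in WT cytoplasm (395 and 256). As for PRDX6, only the WT cytoplasm library is high among the 4. Its polysome-minus-cytoplasm difference was -0.24 in KO cells and -1.41 in WT cells, a change of 1.18 with an interval of 0.65 to 1.70.

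ACTR1A had a distal share of 82.6% in KO polysomes (604 distal and 127 proximal reads), 79.7% in KO cytoplasm (378 and 96), 87.1% in WT polysomes (542 and 80) and 68.9% in WT cytoplasm (246 and 111). The WT cytoplasm is again the library farthest from the others. Polysome minus cytoplasm was 0.27 in KO cells and 1.61 in WT cells, a change of -1.34 with an interval of -1.97 to -0.71. RER1 had 42.0% in KO polysomes (188 and 260), 36.5% in KO cytoplasm (120 and 209), 23.1% in WT polysomes (111 and 369) and 42.0% in WT cytoplasm (174 and 240). In this gene the WT polysome library is the low one. Polysome minus cytoplasm was 0.33 in KO cells and -1.27 in WT cells, a change of 1.60 with an interval of 1.01 to 2.19.

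FIBP had a distal share of 19.0% in KO polysomes (105 distal and 448 proximal reads), 14.6% in KO cytoplasm (75 and 437), 15.0% in WT polysomes (69 and 392) and 23.7% in WT cytoplasm (71 and 229). The WT cytoplasm is highest and the KO polysomes follow. Polysomes differed from cytoplasm by 0.45 in KO cells and -0.82 in WT cells, a change of 1.27 with an interval of 0.56 to 1.98, the widest interval of the 8 genes.

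**Figure D1:**
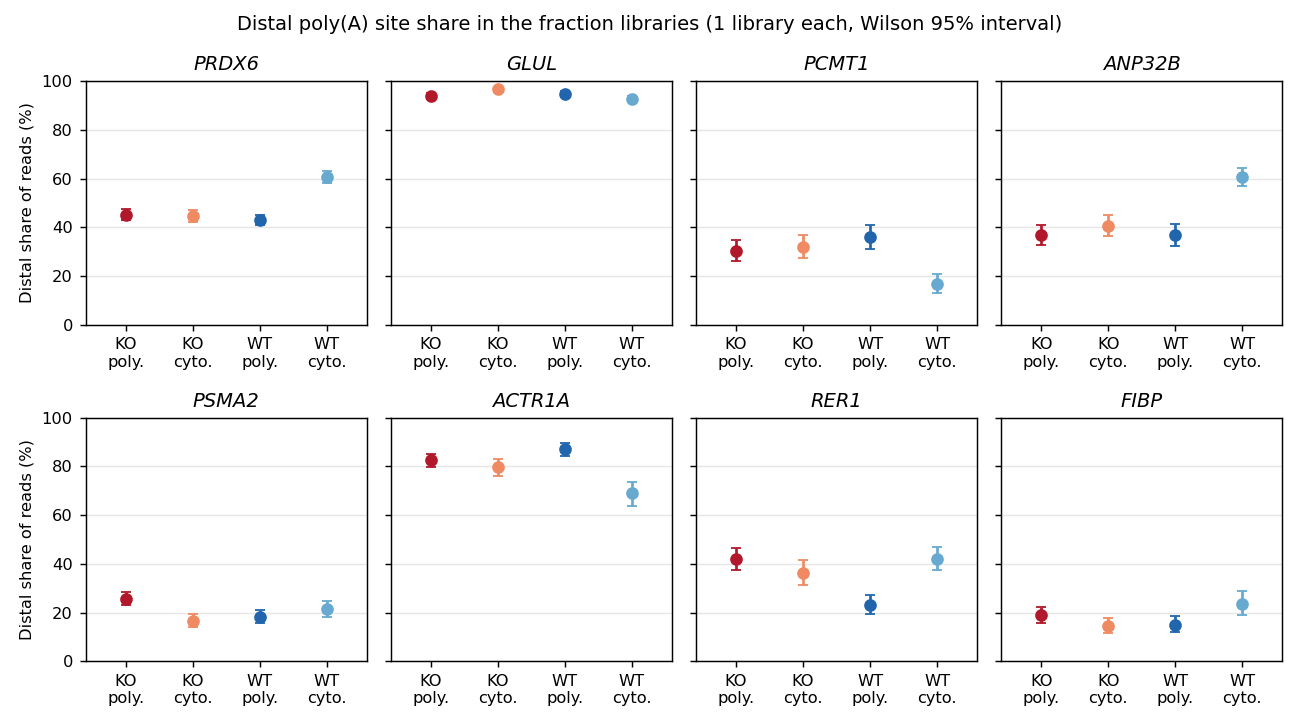
Distal share of reads (percent) of each gene in KO polysomes, KO cytoplasm, WT polysomes and WT cytoplasm, 1 library each, with bars for Wilson 95% intervals (counting error only). In PRDX6 and ANP32B the WT cytoplasm point (60.5% and 60.7%) stands above the other 3, and in RER1 the WT polysome point (23.1%) stands below them.

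The change that chose the genes can be split into its cytoplasm and polysome terms, which are given as values only, since the choice used these libraries and nothing is read from their counts. In cytoplasm, KO minus WT was -0.94 for PRDX6, 1.21 for GLUL, -0.45 for PSMA2, 1.25 for PCMT1, -1.17 for ANP32B, 0.83 for ACTR1A, -0.34 for RER1 and -0.85 for FIBP, and 3 of the 8 were past 1 in size, against 6.04% of all pairs. The difference was larger in cytoplasm than in polysomes in all but PSMA2 and RER1, and over all pairs the cytoplasm term also had the wider spread (SD 0.53, against 0.45 in polysomes). In polysomes, KO minus WT was 0.13 for PRDX6, -0.22 for GLUL, 0.62 for PSMA2, -0.36 for PCMT1, 0.00 for ANP32B, -0.51 for ACTR1A, 1.27 for RER1 and 0.41 for FIBP. Only RER1 was past 1 there, against 3.16% of all pairs.

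The library farthest from the mean of the other 3 was WT cytoplasm for 5 of the 8 genes (PRDX6, PCMT1, ANP32B, ACTR1A and FIBP), and for 34.9% of all pairs, more than for any other library. It was KO cytoplasm for GLUL, KO polysomes for PSMA2 and WT polysomes for RER1. Polysome minus cytoplasm had opposite signs in KO and WT cells in 6 of the 8, all but ANP32B and ACTR1A, and in 32.2% of all pairs. Among these 6 genes, the counting intervals of both genotypes excluded 0 only in GLUL. That is no test, since these values chose the genes, and the share of all pairs with such intervals was not determined. With 1 library for each combination, a difference between libraries and one between genotypes cannot be told apart.

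**Figure D2:**
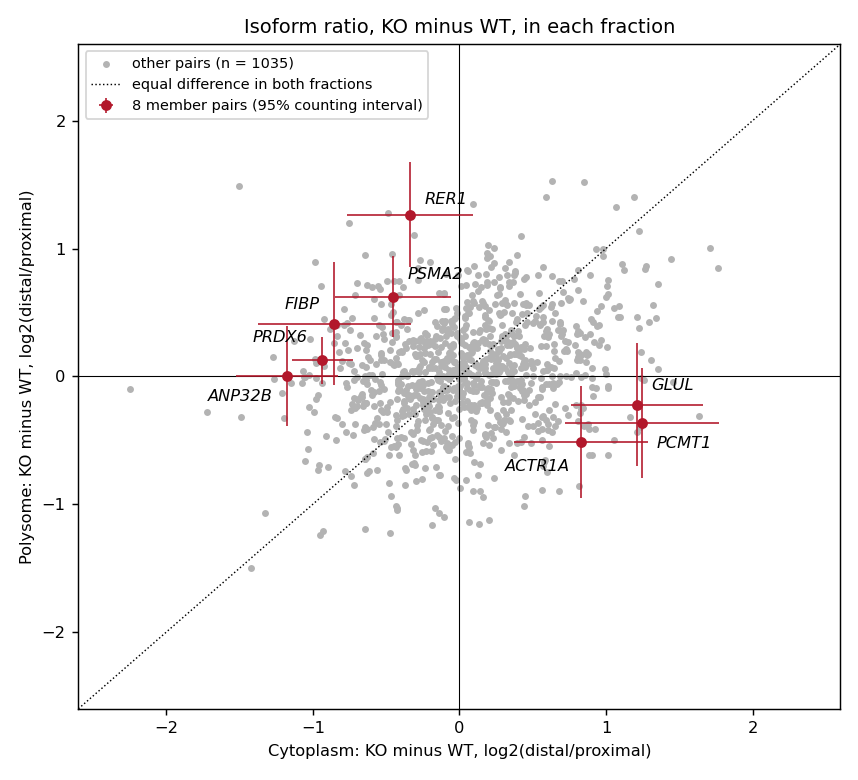
KO minus WT difference in log2(distal/proximal) in cytoplasm (horizontal axis) and in polysomes (vertical axis) for the 8 genes with 95% counting intervals and for the other 1035 pairs (grey). PRDX6 and ANP32B sit near 0 on the polysome axis, and RER1 sits at 1.27 on it. The vertical offset from the dotted diagonal of equal differences, positive above it, is the change that chose the genes.

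The levels of each end, in CPM (counts scaled to library size with the TMM factors of edgeR), show which end the differences lay at. In bulk RNA, fewer cells that make an isoform and less of it per cell cannot be told apart. In cytoplasm the distal end differed more than the proximal end for ANP32B, PRDX6, PCMT1, RER1 and PSMA2. The distal end of ANP32B had 61.3 CPM in KO cytoplasm and 152 CPM in WT cytoplasm (log2 -1.31), and its proximal end 89.8 and 98.4 CPM (-0.13). That of PRDX6 had 210 CPM in KO and 373 CPM in WT cytoplasm (-0.83), against 262 and 244 CPM at the proximal end (0.10). That of PCMT1 had 38.7 CPM in KO and 20.7 CPM in WT cytoplasm (0.90), against 82.3 and 105 CPM at the proximal end (-0.34). In these 3 genes the polysome libraries were closer together than the cytoplasm libraries in isoform balance. RER1 had 38.7 CPM at the distal end in KO and 66.9 CPM in WT cytoplasm (-0.79), against 67.5 and 92.2 CPM at the proximal end (-0.45). PSMA2 had 37.1 CPM at the distal end in KO and 53.4 CPM in WT cytoplasm (-0.52), against 187 and 196 CPM at the proximal end (-0.07, or 0.026 with library totals in place of TMM).

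For GLUL and FIBP the larger difference lay at the proximal end. GLUL had 19.4 CPM there in KO cytoplasm and 51.5 CPM in WT cytoplasm (-1.41), and 568 and 651 CPM at the distal end (-0.20). FIBP had 141 CPM at the proximal end in KO and 88.0 CPM in WT cytoplasm (0.68), and 24.2 and 27.3 CPM at the distal end (-0.17). In ACTR1A the ends differed in opposite directions, with 122 CPM in KO and 94.5 CPM in WT cytoplasm at the distal end (0.37) and 31.0 and 42.7 CPM at the proximal end (-0.46).

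In polysomes, RER1 had 68.0 CPM at its proximal end in KO cells and 124 CPM in WT cells (-0.87), and 49.1 and 37.4 CPM at the distal end (0.39). PSMA2 had 77.6 CPM at the distal end in KO and 49.8 CPM in WT polysomes (0.64), with 224 and 222 CPM at the proximal end (0.01). These are the only genes of the 8 in which isoform balance differed more between the polysome libraries than between the cytoplasm libraries. GLUL was low as a whole in KO polysomes, with 270.5 CPM at the distal end against 506 CPM in WT polysomes (-0.90) and 17.2 against 27.6 CPM at the proximal end (-0.68).

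In the pull-downs, the question was whether STAU1 holds 1 of a gene's ends more than the other, with GFP as the background of the same procedure. In the main fit, none of the 8 genes passed a test of the distal-to-proximal ratio in any contrast. The test was edgeR's quasi-likelihood test with Benjamini-Hochberg adjustment over 3778 pairs at 0.05. It called almost none of the changes put into simulated data, so a gene not called is not shown to be unchanged. STAU1 IP over STAU1 input called 17 pairs (0.45%), 14 higher (0.371%) and 3 lower (0.0794%), while GFP IP over GFP input, the difference of both (STAU1 minus GFP) and STAU1 input over GFP input called 0 each. At an unadjusted edgeR p under 0.05, RER1 passed in STAU1 IP over input and in the difference, and ANP32B in GFP IP over input. That is 1 of the 8 genes in each, and 0 between the inputs. Of all pairs, 490 (13%) passed in STAU1 IP over input, 436 (11.5%) in GFP IP over input, 284 (7.52%) in the difference and 107 (2.83%) between the inputs. A count of 1 of 8 is near these shares. DESeq2 called 123, 39, 2 and 0 pairs and 0 of the 8 genes. The 17 pairs depended on single libraries, with 0 called when STAU1 IP replicate 1 was left out. Leaving out replicate 1 of the STAU1 input gave 2 pairs, and leaving out its replicate 2 gave 123. The standard errors of the 8 genes in STAU1 IP over input were 0.47 to 0.85 on the log2 scale, and the intervals below show which changes these data leave possible.

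In ACTR1A the distal share was 72.9% and 77.5% in STAU1 IP, against 62.4% and 59.3% in STAU1 input. It was 35.4% and 48.2% in GFP IP, against 50.4% and 50.0% in GFP input. Both STAU1 IP libraries lie above their input and both GFP IP libraries below theirs. The log2 ratio changed by 0.97 ± 0.47 in STAU1 IP over input (SE, interval -0.08 to 2.03, edgeR adjusted p = 0.422) and by -0.50 ± 0.48 in GFP IP over input, a difference of 1.47 ± 0.68 (interval -0.04 to 2.97, edgeR adjusted p = 0.659).

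RER1, the other gene of membrane and cargo traffic, had distal shares of 61.2% and 21.4% in STAU1 IP, against 14.8% and 12.3% in STAU1 input. It had 13.6% and 8.70% in GFP IP, against 25.6% and 17.9% in GFP input. The directions are those of ACTR1A, but the STAU1 IP replicates are far apart and the GFP IP values rest on 6 distal reads in each library. The log2 ratio changed by 2.10 ± 0.85 with STAU1 (SE, interval 0.23 to 3.98, edgeR adjusted p = 0.336) and by -1.17 ± 0.91 with GFP, a difference of 3.27 ± 1.24 (interval 0.52 to 6.02, edgeR adjusted p = 0.629). Without STAU1 IP replicate 1 the STAU1 change was 0.80 and the difference 1.97, and without replicate 2 they were 3.33 and 4.50.

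ANP32B had distal shares of 66.2% and 53.9% in STAU1 IP, against 46.1% and 48.5% in STAU1 input. In GFP IP it had 73.4% and 80.4%, against 53.5% and 45.5% in GFP input. Both pull-downs lie above their inputs, and GFP IP lies above STAU1 IP. The log2 ratio changed by 0.75 ± 0.49 with STAU1 (edgeR adjusted p = 0.546) and by 1.78 ± 0.49 with GFP (SE, interval 0.68 to 2.88, edgeR adjusted p = 0.263). The GFP value passed (edgeR adjusted p = 0.0486) when fewer pairs were tested, at a minimum mean of 30 reads per site in place of 10.

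FIBP had distal shares of 21.6% and 14.4% in STAU1 IP, against 11.3% and 12.6% in STAU1 input, and the log2 ratio changed by 0.67 ± 0.49. It had 14.8% and 13.5% in GFP IP, against 10.1% and 12.3% in GFP input, a change of 0.39 ± 0.50. Both pull-downs lie above their inputs and the difference between them, 0.28 ± 0.70, has an interval of -1.28 to 1.83.

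PRDX6 had distal shares of 61.8% and 46.5% in STAU1 IP, against 42.4% and 47.0% in STAU1 input, and 49.6% and 57.1% in GFP IP, against 46.8% and 42.5% in GFP input. The STAU1 libraries overlap and the GFP libraries do not. The log2 ratio changed by 0.55 ± 0.48 with STAU1 and 0.50 ± 0.48 with GFP, a difference of 0.05 ± 0.67 (interval -1.45 to 1.55). GLUL had 87.5% and 85.6% in STAU1 IP, against 89.6% and 92.0% in STAU1 input, and 77.0% and 80.7% in GFP IP, against 82.4% and 91.5% in GFP input. All 4 pull-down libraries of GLUL lie below their inputs, with changes of -0.62 ± 0.51 and -0.93 ± 0.53.

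PCMT1 had distal shares of 5.64% and 20.0% in STAU1 IP, which lie on either side of the 11.9% and 11.3% of STAU1 input. Its shares in GFP IP were 23.1% and 14.2%, against 15.5% and 12.8% in GFP input, so the groups overlap in both pull-downs. PSMA2 had 19.4% and 19.9% in STAU1 IP, against 21.2% and 23.7% in STAU1 input, and 24.6% and 20.0% in GFP IP, against 19.2% and 27.3% in GFP input. It has the fewest reads of the 8, at most 14 distal reads in a GFP IP library, and its changes were -0.25 ± 0.64 with STAU1 and -0.05 ± 0.66 with GFP.

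Across the 8 genes the median change of the log2 ratio was 0.61 in STAU1 IP over input, with 5 of 8 positive, against 0.21 over all pairs. It was 0.17 in GFP IP over input, with 4 of 8 positive, against -0.03 over all pairs, and in the difference of both it was 0.17, against 0.21. Of the 5 genes with a positive KO-minus-WT change in the fractions, the log2 ratio changed upward in STAU1 IP in all but PSMA2, and in GFP IP in all but PSMA2 and RER1. Of the other 3, it was negative in STAU1 IP in all but ACTR1A, and in GFP IP in all but PCMT1. How often the signs agree over all pairs was not determined, so nothing is read from these directions. None of these changes passed the test. Several moved with single libraries. Without STAU1 IP replicate 1 and without replicate 2, the change in STAU1 IP was 0.10 and 1.00 for PRDX6, 0.38 and 1.13 for ANP32B, 0.32 and 1.02 for FIBP, and 0.93 and -1.13 for PCMT1. PCMT1 also turned to 0.0079 without STAU1 input replicate 1. In GFP IP, GLUL had -1.53 without GFP input replicate 1 and -0.33 without replicate 2, and ACTR1A had -0.11 without GFP IP replicate 1 and -0.88 without replicate 2.

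**Figure D3:**
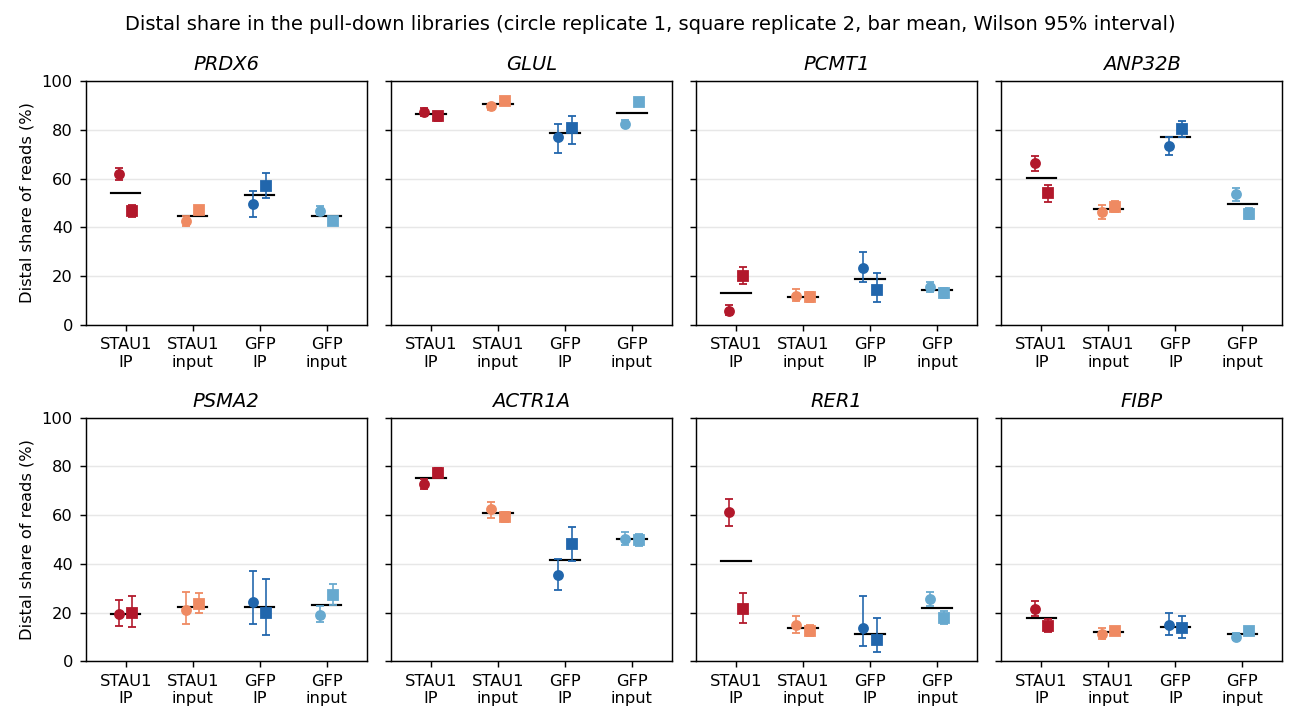
Distal share of reads (percent) of each gene in every pull-down and input library, 2 replicates per group, with Wilson 95% intervals (counting error only). The STAU1 IP points of ACTR1A (72.9% and 77.5%) stand above all its other libraries, the GFP IP points of ANP32B (73.4% and 80.4%) above all of its own, and the STAU1 IP points of RER1 (61.2% and 21.4%) lie far apart.

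**Figure D4:**
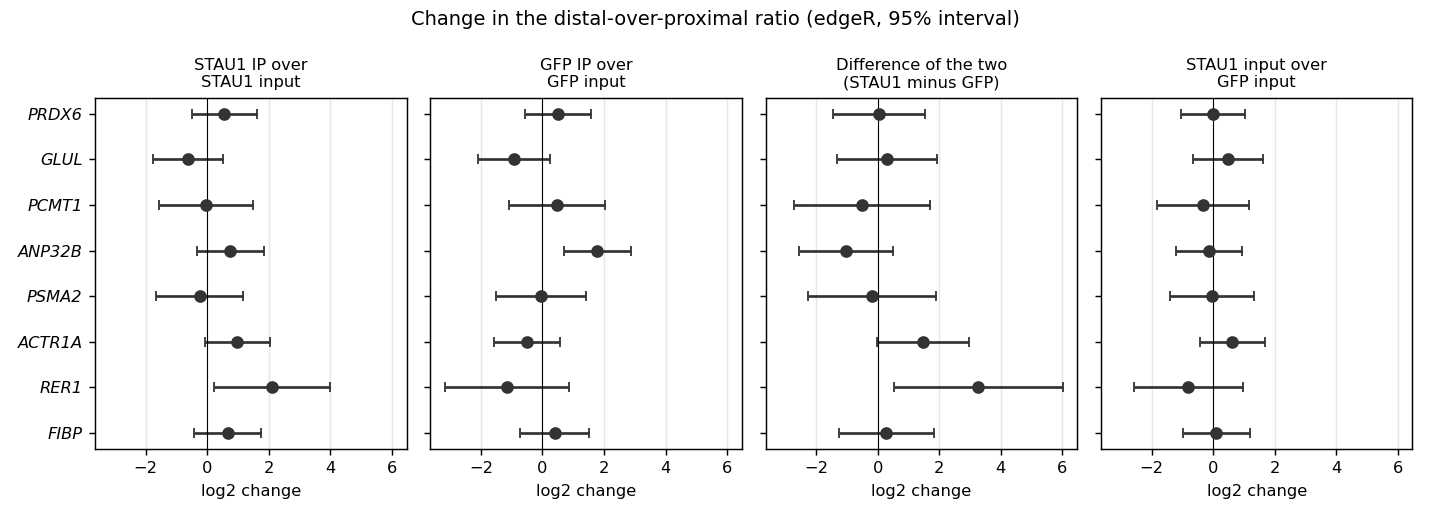
Change of the log2 distal-to-proximal ratio with 95% intervals from edgeR for STAU1 IP over input, GFP IP over input, their difference (STAU1 minus GFP) and STAU1 input over GFP input. In the first panel the interval of RER1 (0.23 to 3.98) excludes 0 before adjustment over all pairs, in the second that of ANP32B (0.68 to 2.88), and in the last every interval holds 0.

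Tested site by site, with edgeR over 33744 sites, 7 of the 16 ends passed in at least 1 pull-down in the main fit. The shares and medians over all sites given below are not matched to these ends in depth. The 16 ends had means of 56.8 to 1871 reads per library. In STAU1 IP over input their SE was 0.21 to 0.55, against a median SE of 1.18 over all sites. A higher share called can therefore not be read as a trait of these genes. In STAU1 IP over STAU1 input, 5 of the 16 ends passed (6.05% of all sites), of which 1 rose (3.06%) and 4 fell (2.99%), with a median log2 change of -0.45 against 0.12 over all sites. In GFP IP over GFP input, 5 of the 16 passed (6.1%), of which 1 rose (2.11%) and 4 fell (3.99%), with a median of -0.58 against -0.16 over all sites. These counts moved with the settings, between 2 and 6 ends with STAU1 and between 2 and 9 with GFP. With STAU1, 0 ends rose and 3 fell when replicate 1 of the input was left out, and 0 rose and 2 fell when replicate 1 of the IP was. With GFP, 1 rose and 1 fell with library totals, as also when GFP input replicate 2 or GFP IP replicate 1 was left out. Leaving out GFP input replicate 1 or GFP IP replicate 2 gave 1 and 2, and no filter on low counts gave 1 and 8. In the difference of both, 2 ends passed (0.688% of all sites), 1 higher (0.53%) and 1 lower (0.157%), and between the inputs 0 passed (0.00889% of all sites), with 1 of the 16 at an unadjusted p under 0.05 by edgeR (4.02% of all sites) and 0 called by DESeq2.

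The distal end of ACTR1A rose with STAU1. It had 197 and 225 CPM in STAU1 IP, against 93.6 and 137 CPM in STAU1 input, and 55.3 and 69.2 CPM in GFP IP, against 90.8 and 98.6 CPM in GFP input. Both STAU1 IP libraries stand above all others. The log2 change was 0.87 ± 0.23 with STAU1 (SE, edgeR adjusted p = 0.0289) and -0.61 ± 0.24 with GFP (edgeR adjusted p = 0.191), and the difference of 1.47 ± 0.33 passed at an edgeR adjusted p of 0.0486. Its proximal end had 73.2 and 65.2 CPM in STAU1 IP, against 56.5 and 94.4 CPM in STAU1 input, a change of -0.13 ± 0.26. The STAU1 call was lost without STAU1 input replicate 1 (0.62, edgeR adjusted p = 0.288), without either STAU1 IP replicate (0.96 and 0.77) and with no filter on low counts (0.65). The difference was lost in 6 of the 8 fits that leave out 1 library, among them that without STAU1 input replicate 1 (1.22), and with library totals in place of TMM (1.31, edgeR adjusted p = 0.060).

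The distal end of ANP32B rose with GFP and did not pass with STAU1. It had 84.5 and 72.5 CPM in STAU1 IP, against 94.5 and 98.3 CPM in STAU1 input, and 296 and 342 CPM in GFP IP, against 93.5 and 103 CPM in GFP input. The GFP IP libraries hold about the same level as each other and lie well above the other 6. The change was -0.30 ± 0.21 with STAU1 (edgeR adjusted p = 0.467) and 1.69 ± 0.21 with GFP (edgeR adjusted p = 4.48e-05), and the difference was -1.99 ± 0.29 (edgeR adjusted p = 0.00251). These GFP and difference calls held in every fit that left out 1 library, at 1.60 to 1.80 and at -2.11 to -1.88. The proximal end, 123 nt upstream, had 43.1 and 62.1 CPM in STAU1 IP, against 110 and 105 CPM in STAU1 input, and fell by 1.03 ± 0.26 on the log2 scale (edgeR adjusted p = 0.0226), a call lost without STAU1 input replicate 1 (-0.99, edgeR adjusted p = 0.104) and without STAU1 IP replicate 1 (-0.79). In GFP IP it had 107 and 83.1 CPM, against 81.2 and 124 CPM in GFP input, a change of -0.11 ± 0.27.

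RER1 fell at its proximal end in both pull-downs. That end had 16.8 and 22.4 CPM in STAU1 IP, against 68.0 and 82.2 CPM in STAU1 input, and 26.3 and 45.9 CPM in GFP IP, against 86.8 and 80.0 CPM in GFP input. It fell by 1.94 ± 0.30 with STAU1 (edgeR adjusted p = 0.000404), in every fit that left out 1 library, and by 1.21 ± 0.30 with GFP (edgeR adjusted p = 0.0196), a call lost in 3 such fits and with library totals. The distal end had 26.6 and 6.10 CPM in STAU1 IP, against 11.8 and 11.6 CPM in STAU1 input, and 4.15 and 4.37 CPM in GFP IP, against 29.8 and 17.5 CPM in GFP input. It changed by 0.48 ± 0.55 with STAU1, with opposite signs for the STAU1 IP replicates (1.18 without replicate 2 and -0.94 without replicate 1). With GFP it fell by 2.47 ± 0.67 (edgeR adjusted p = 0.0329), a call lost in 4 such fits and with library totals.

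The difference between the pull-downs at the distal end of RER1, 2.95 ± 0.87, did not pass (edgeR adjusted p = 0.153), but it did without STAU1 IP replicate 2 (3.65, edgeR adjusted p = 0.0141). RER1 is the only gene of the 8 with other ends of weight. The given pair held 78.8% of the same-strand reads within 3000 nt in the fractions and 68.5% in the pull-downs, against 97.1% to 99.5% in the other 7 genes. Another end, at 2336874, took 25.0% of those reads in the pull-downs, more than the given distal end with 14.7%, and 6.08% in the fractions. In the fractions the largest further end was that at 2334740, with 11.9% of the reads, against 3.03% in the pull-downs. The end at 2336874 had 233 and 202 reads in STAU1 IP, against 103 and 234 in STAU1 input, and 42 and 43 in GFP IP, against 200 and 191 in GFP input, and its changes of 0.62 ± 0.32 and 0.19 ± 0.34 did not pass (edgeR adjusted p = 0.310 and 0.848).

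GLUL fell at its distal end in both pull-downs. It had 206 and 203 CPM in STAU1 IP, against 376 and 467 CPM in STAU1 input, and 97.5 and 106 CPM in GFP IP, against 318 and 471 CPM in GFP input. All pull-down libraries lie below all inputs. The log2 change was -1.04 ± 0.21 with STAU1 (edgeR adjusted p = 0.00431) and -1.95 ± 0.22 with GFP (edgeR adjusted p = 1.97e-05), and both calls held in every fit that left out 1 library. The difference of 0.91 ± 0.30 did not pass (edgeR adjusted p = 0.214), except with no filter on low counts (1.13, edgeR adjusted p = 0.0384).

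PRDX6 fell at its proximal end by about the same amount in each pull-down. It had 85.9 and 138 CPM in STAU1 IP, against 231 and 219 CPM in STAU1 input, and 120 and 109 CPM in GFP IP, against 204 and 263 CPM in GFP input. The change was -1.01 ± 0.23 with STAU1 (edgeR adjusted p = 0.0118) and -1.03 ± 0.24 with GFP (edgeR adjusted p = 0.0120), and the difference of 0.02 ± 0.33 had an interval of -0.67 to 0.72. The STAU1 call was lost without STAU1 input replicate 1 (-0.97, edgeR adjusted p = 0.0708) and without STAU1 IP replicate 1 (-0.71). The GFP call was lost with library totals (-0.72) and in 3 of the fits that left out a library, those of GFP input replicate 2 and of each GFP IP replicate. Its distal end changed by -0.49 ± 0.21 and -0.51 ± 0.21, which did not pass.

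In the main fit, no end of PCMT1, PSMA2 or FIBP passed in either pull-down. Some other settings called more of the 16 ends, and whether ends of these genes were among them was not examined. The changes at the proximal and distal end with STAU1 were -0.58 ± 0.22 and -0.36 ± 0.53 for PCMT1, -0.34 ± 0.34 and -0.62 ± 0.55 for PSMA2, and -0.71 ± 0.22 and -0.03 ± 0.38 for FIBP. Before adjustment, the STAU1 interval excludes 0 at the proximal ends of FIBP (-1.17 to -0.24, edgeR adjusted p = 0.071) and PCMT1 (-1.04 to -0.12, edgeR adjusted p = 0.143). With GFP these 2 ends changed by similar amounts, -0.56 ± 0.23 for FIBP and -0.55 ± 0.23 for PCMT1. The differences between the pull-downs were -0.14 ± 0.32 and -0.03 ± 0.31. With library totals the median of all sites moved to 0.26 in STAU1 IP over input and to 0.13 in GFP IP over input, so that changes are relative to a centre that depends on the scaling.

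**Figure D5:**
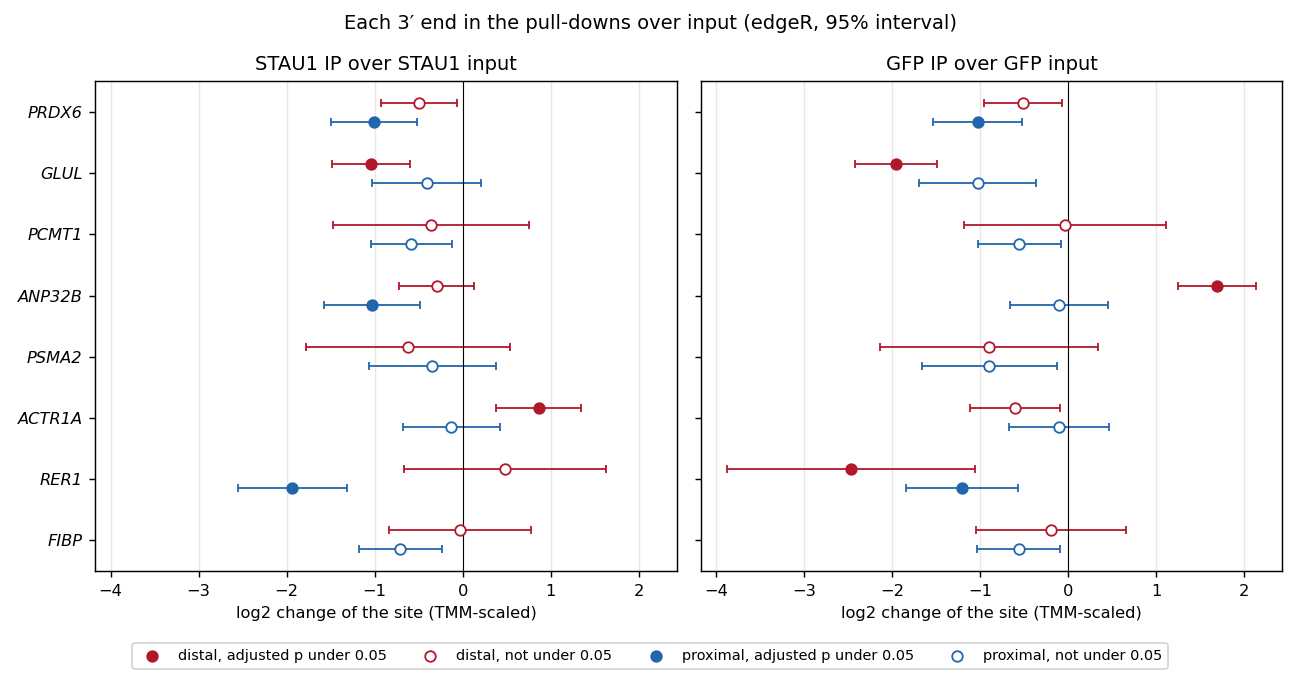
Log2 change of each proximal (blue) and distal (red) end in STAU1 IP over STAU1 input and in GFP IP over GFP input, with 95% intervals from edgeR and filled points where the adjusted p is under 0.05. The distal ends of ACTR1A (0.87 and -0.61) and ANP32B (-0.30 and 1.69) lie on opposite sides of 0 in the panels, and the distal end of GLUL and the proximal ends of PRDX6 and RER1 lie below 0 in each.

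The inputs give a further reading of the distal share in cells of the KO clone, though as total lysate with a transfected protein. In the STAU1 inputs that protein is STAU1-FLAG, so only the GFP inputs are of cells without STAU1. Both kinds are pooled below. In ACTR1A they lay apart, at 50.4% and 50.0% in GFP input and 62.4% and 59.3% in STAU1 input. The 4 inputs of PRDX6 had shares of 42.4% to 47.0%, which hold the 44.5% of KO cytoplasm and not the 60.5% of WT cytoplasm. Those of PSMA2, 19.2% to 27.3%, hold the 21.4% of WT cytoplasm and not the 16.6% of KO cytoplasm. For the other 6 genes neither cytoplasm lay within the range of the inputs. The inputs' median was nearer to KO cytoplasm in 4 genes (PRDX6, ANP32B, RER1 and FIBP) and nearer to WT cytoplasm in 4 (GLUL, PCMT1, PSMA2 and ACTR1A), and some gaps were wide, as in RER1, with 12.3% to 25.6% in the inputs against 36.5% in KO and 42.0% in WT cytoplasm, and in ACTR1A, with 50.0% to 62.4% against 79.7% and 68.9%. The tables were made separately and no test was made across them.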

How the data were processed

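Per the labels' protocols, the 12 libraries were made with 3'READS+. The submitters' processing notes name STAR and hg19, with no version. The counts deposited by the authors are whole reads at each poly(A) site with no normalization, in separate tables of pull-downs (640413 sites) and fractions (189010 sites). The 8 genes, their site pairs and the tests were chosen with earlier results of these data known. Each given position was matched to the nearest same-strand site within 24 nt. The test was the quasi-likelihood F-test of edgeR 4.0.16 (R 4.3.3) over 4 groups with 4 residual degrees of freedom and Benjamini-Hochberg adjustment at 0.05. DESeq2 1.42.0, other scalings and filters, a replicate block and leaving out each library were the alternatives. Sites were scaled by TMM and passed filterByExpr. Pairs were the most-read sites of runs with gaps up to 5000 nt, at least 100 nt apart, with a mean of at least 10 reads, and the 8 given pairs replaced that of their own run (a change only for RER1). The pair model fitted each library, the site, and a site effect per group. The scripts were tested on simulated data, where the pair fit called almost none of the changes put in. A gene not called by that fit is therefore not shown to be unchanged. All 8 genes are named. Planned lists of related genes and a check of the STAU1 transcript were not analysed here, as sites carry no gene names. Replicates differed beyond sampling noise (chi-square per degree of freedom 3.41 to 13.7). Deeper libraries have narrower counting intervals.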

Additional observations from a re-analysis of the deposited data

Results flagged for a closer look

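Among the 16 ends tested, 2 differed between the STAU1 and the GFP pull-down by a test of the difference itself (0.688% of all sites, a share not matched in depth). For the distal end of ANP32B the difference was -1.99 ± 0.29 on the log2 scale (edgeR adjusted p = 0.00251). This end rose over input with GFP (1.69) and did not pass with STAU1 (-0.30). For the distal end of ACTR1A, higher with STAU1, the difference was 1.47 ± 0.33 (edgeR adjusted p = 0.0486). The first was called in every fit that left out 1 library and the second was lost in 6 of 8.

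In the fractions, polysome minus cytoplasm had opposite signs in KO and WT cells for 6 genes, with a KO-minus-WT change of 1.06 for PRDX6, -1.44 for GLUL, -1.61 for PCMT1, 1.08 for PSMA2, 1.60 for RER1 and 1.27 for FIBP. Opposite signs occurred in 32.2% of all pairs, and only in GLUL did the counting intervals of both genotypes exclude 0. These differences were not tested, each rests on 1 library per combination, and they are the values that chose the genes.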

How the results depend on the processing

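The share of all fraction pairs past a change of 1 depended on the minimum reads per site, at 6.13% with 50 reads and 18.0% with 10, against 11.1% with 20. With library totals in place of TMM, an alternative chosen after seeing the data, KO over WT changed sign at the proximal ends of PCMT1 in polysomes (0.025) and of PSMA2 in cytoplasm (0.026), both near 0 under either scaling, and the distal end of GLUL in cytoplasm moved to -0.10.

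Pairs called in STAU1 IP over input numbered 2 at a minimum mean of 5 reads, 71 at 30 reads, 4 with a replicate block and 123 with DESeq2, against 17. In GFP IP over input they numbered 38 at 30 reads and 39 with DESeq2, and in the difference 2 with DESeq2, against 0. Sites called in STAU1 IP over input numbered 1172 with no filter (against 2040), those in the difference 355 with no filter, 512 with the block and 741 with DESeq2 (against 232), and those between the inputs 11, 6 and 10 (against 3). Deviations of same-numbered libraries correlated at -0.02 to 0.03. This gives no sign that replicate numbers pair the samples but cannot exclude it, since noise within libraries lowers such correlations. The proximal end of PRDX6 had a difference near 0 that turned negative with the block (-0.023), RLE size factors (-0.12), DESeq2 (-0.12) and library totals (-0.16). The proximal end of ANP32B in GFP IP over input turned to 0.21 when scaled by library totals, and to 0.053 with RLE size factors and 0.053 with DESeq2.

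Leaving out 1 library at a time, pairs called ranged from 0 (without STAU1 IP replicate 1) to 123 (without STAU1 input replicate 2) in STAU1 IP over input, 0 to 3 in GFP IP over input and 0 to 11 in the difference. Sites called ranged from 1110 to 2469 in STAU1 IP over input, 684 to 2351 in GFP IP over input, 22 to 501 in the difference and 0 to 42 between the inputs. The log2 ratio changed sign for PCMT1 in STAU1 IP over input (-1.13 to 0.93) and for PSMA2 in GFP IP over input (-0.38 to 0.27). In the difference it changed sign for PRDX6 (-0.40 to 0.50), GLUL (-0.29 to 0.90), PCMT1 (-1.59 to 0.47), PSMA2 (-0.52 to 0.14) and FIBP (-0.075 to 0.63). Among the 7 ends called in either pull-down, the only ones examined this way, changes of sign were those of RER1 distal with STAU1 (-0.94 to 1.18), ANP32B proximal with GFP (-0.34 to 0.25) and PRDX6 proximal in the difference (-0.36 to 0.32). The causes were not tested. Depth limits the GFP pull-down most, with 6 distal reads of RER1 in each library, and the fractions have no replicate.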
